A study of Saccharomyces cerevisiae with 7 samples.

Results

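RNA from budding yeast lacking SSN6 was compared with RNA from wild type on 5 of the 7 arrays of the series, the 2 arrays titled as SSN6 knockouts and the 3 titled as wild type. The 5449 budding yeast genes with a probe set of their own were compared, and the account below centres on functions other than mating, sugar transport and breakdown, the PAU family and the flocculins. Both groups were of the haploid laboratory strain BY4742, which carries the alpha mating type, and were grown in rich YEP medium with 2% glucose to an OD600 of 0.8. The wild-type group has no further genotype in the labels, and the deletion group lacks SSN6, a gene now called CYC8. The other 2 arrays of the series, from a tup1 deletion in BY4742 grown alike, shared the estimate of the spread and were used in 1 direct contrast. The labels give neither the way in which the deletion was made nor the number of clones, and they do not say that replicates came from separate cultures. The p-values therefore rest on how far these arrays lie apart, and that distance may be purely technical.

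Ssn6 and Tup1 form a corepressor that does not bind DNA itself. DNA-binding repressors such as Mig1, Rox1, Nrg1, Crt1 and the alpha2 protein bring it to promoters, where it is known to act through nucleosome positions, histone deacetylases and the transcription machinery. Textbook targets include genes for glucose-repressed sugars, hypoxia, DNA damage, meiosis and sporulation, and the genes specific to a cells. A strain without the corepressor is known to flocculate and to grow slowly.

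The deleted gene was near background. CYC8 had log2 levels of 11.22, 11.32 and 11.24 on the wild-type arrays and of 5.62 and 6.07 on the ssn6 arrays. The background floor, set by fission yeast probe sets on the same arrays, was 5.50 to 5.67. On the ssn6 arrays it was 5.50 and 5.67, so the deleted gene read slightly above the floor on both. The change was -5.42 ± 0.16 (moderated standard error, adjusted p = 3.31e-06), where a change is the mean log2 level of the ssn6 arrays minus that of the wild-type arrays. TUP1 lay at 12.50, 11.56 and 12.19 on the wild-type arrays and at 11.81 and 11.90 on the ssn6 arrays, a difference within the spread (-0.22 ± 0.27, adjusted p = 0.588). LYS2 and URA3, which BY4742 lacks, were under the floor on all 5 arrays, and the alpha-cell receptor gene STE3 was at 12.41, 12.17 and 12.31 in wild type. Median levels of 10.95 to 11.06 stood far above the floor. The ssn6 arrays differed from each other by a standard deviation of 0.197 over genes, and pairs of wild-type arrays by 0.367 to 0.498. Wild-type replicate 2 stood apart: the 3' probe set of ACT1 exceeded the 5' one by 2.06, against 0.298 to 0.611 on the other wild-type and ssn6 arrays, and it had the lowest estimated array weight (0.286, against 3.65 for each ssn6 array). The mean level of the ribosomal RNA control probe sets was 11.06, 8.41 and 12.42 on the wild-type arrays and 8.73 and 7.47 on the ssn6 arrays, so it was on average higher in wild type, with overlap. The part of these measures in the results was not tested.

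Of the 5449 genes, 500 were higher in the ssn6 deletion (9.18%) and 559 were lower (10.3%) at an adjusted p under 0.05. Changes of at least 2-fold were found for 326 genes that rose (5.98%) and for 138 that fell (2.53%), and 41 genes rose at least 16-fold. The levels of 3236 genes (59.4%) did not overlap between the groups, so a lack of overlap alone says little of a gene. Mating, sugar, PAU and flocculin genes, 112 of them measured, made up 45 of the 326 rises and 1 of the 138 falls. The other 281 rises, 86.2% of the total, are the subject here. As bulk RNA was measured, more cells that express a gene and more RNA per cell cannot be told apart. A single ssn6 array in the fit, assumed to vary like the other groups, gave 298 calls without ssn6 replicate 1 and 279 without ssn6 replicate 2, against 1059 with both. The falls depended on the arrays most: 78 and 52 genes were called lower without ssn6 replicate 1 or 2, and 351 without wild-type replicate 1.

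Genes that were dim in wild type rose most often. Among the dimmest 25% of genes in wild type, 258 of 1363 genes were higher (18.9%) and 212 of these rose at least 2-fold, while among the brightest 25% it was 33 of 1362 (2.42%). Genes with no name beyond their locus tag were higher in 79 of 499 cases (15.8%) against 421 of 4950 named genes (8.51%). Such genes made up 18.1% of the 2-fold rises. Their median wild-type level was 9.80, against 11.08 for named genes.

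The 60 gene lists outside mating, sugar, PAU and flocculin genes moved in different directions. In 32 lists more members were higher than lower, in 21 more were lower, and in 7 the numbers were equal. In 14 lists the share of higher members was at least 3 times that of all genes, and in 6 lists the share of lower members was. The bars of the list plot show that the lists with the highest shares of risen members concern mannoproteins of anaerobic cells, fatty acid oxidation and vitamins. Branched-chain amino acid synthesis and daughter cell separation have the highest shares of lower members. Next come aromatic amino acid breakdown, serine, threonine and aspartate metabolism, phosphate, and histone deacetylases. Of the 6 aromatic breakdown genes 2 were lower and 2 higher, so that list moved both ways. The median change over all genes, against which list medians should be read, was -0.14.

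**Figure D1:**
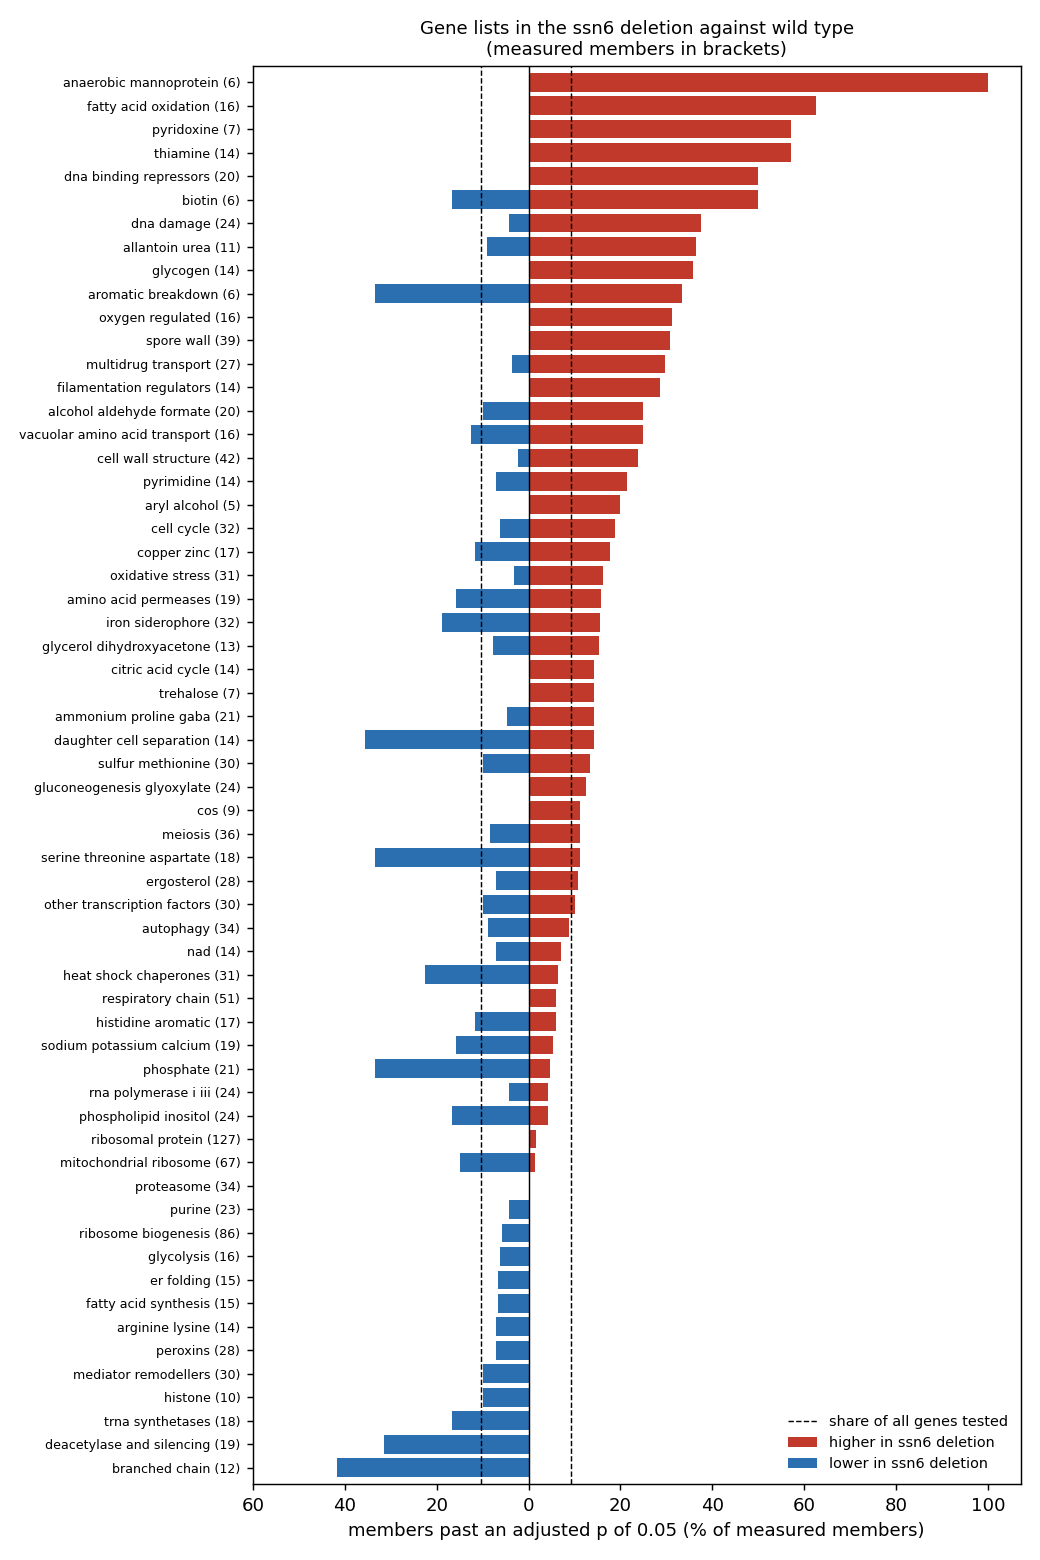
Share of measured members called higher (right, red) or lower (left, blue) in the ssn6 deletion for each of 60 gene lists, in percent, with the number of measured members in brackets; dashed lines mark the shares of all 5449 genes, 9.18% higher and 10.3% lower. All 6 anaerobic mannoprotein genes were higher, and 5 of 12 branched-chain amino acid genes were lower.

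Outside the families set aside, DAN1, VBA3 and DAK2 rose most, by nearly equal amounts that do not rank them. DAN1, a cell wall mannoprotein of anaerobic cells, lay at 7.08, 6.72 and 7.19 in wild type, and the ssn6 arrays gave 13.39 and 13.48, a change of 6.44 ± 0.17 (adjusted p = 1.73e-06). DAK2, 1 of the yeast's dihydroxyacetone kinases, went from 7.31, 7.12 and 7.46 to 13.68 and 13.65 (6.37 ± 0.15, adjusted p = 1.16e-06). Both genes were among the dimmest in wild type and near the top of the scale in the deletion, with no overlap between groups. VBA3, a permease for basic amino acids at the vacuole, was at 5.13, 4.48 and 6.33 in wild type, under the floor on 2 of 3 arrays, and at 11.68 and 11.79 in the deletion (6.42 ± 0.47, adjusted p = 0.000131). GAT3, which encodes a GATA-type zinc finger protein, was likewise under the floor on 2 wild-type arrays (5.03, 4.92 and 5.87) and reached 10.79 and 10.89 (5.57 ± 0.34, adjusted p = 6.19e-05). With 1 of 3 wild-type arrays above the floor for VBA3 and for GAT3, the size of these changes and their place among the rises are uncertain.

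The other 12 of the 16 largest rises had changes of at most 5.81, and their highest adjusted p was 0.000108. They include DIT1 and DIT2, described with the spore wall, ERR3 (4.89), an enolase-related gene, OYE3 (4.82), an NADPH oxidoreductase of the old yellow enzyme family, and SNO4 (4.55), a relative of the Hsp31 chaperone. SET4, a gene for a SET-domain protein and the smallest of the 16 rises, went from 6.31, 6.60 and 6.08 to 10.70 and 10.75. Its wild-type levels were near the signal of the deleted CYC8 on the ssn6 arrays, so the size of its rise is uncertain too. A further 5 have no name beyond the locus tag: YNR071C (5.79), YML083C (5.62), YAL065C (4.53), YKL107W (4.45) and YDL218W (4.42). The flocculins set aside were the 5 measured genes with a FLO name, so an unnamed locus that resembles a flocculin was not set aside. In the plot of the largest changes the ssn6 arrays of the risen genes nearly coincide, while the wild-type arrays spread further. ERR3, DDI3, SNZ3, SNO3 and THI13 belong to families of nearly identical copies, and their probe sets cannot be assigned to a single copy with certainty. The same limit holds for VBA3, its neighbour GEX1 and SNO4. Their relatives VBA5, GEX2, HSP32 and HSP33 were not among the genes compared.

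**Figure D2:**
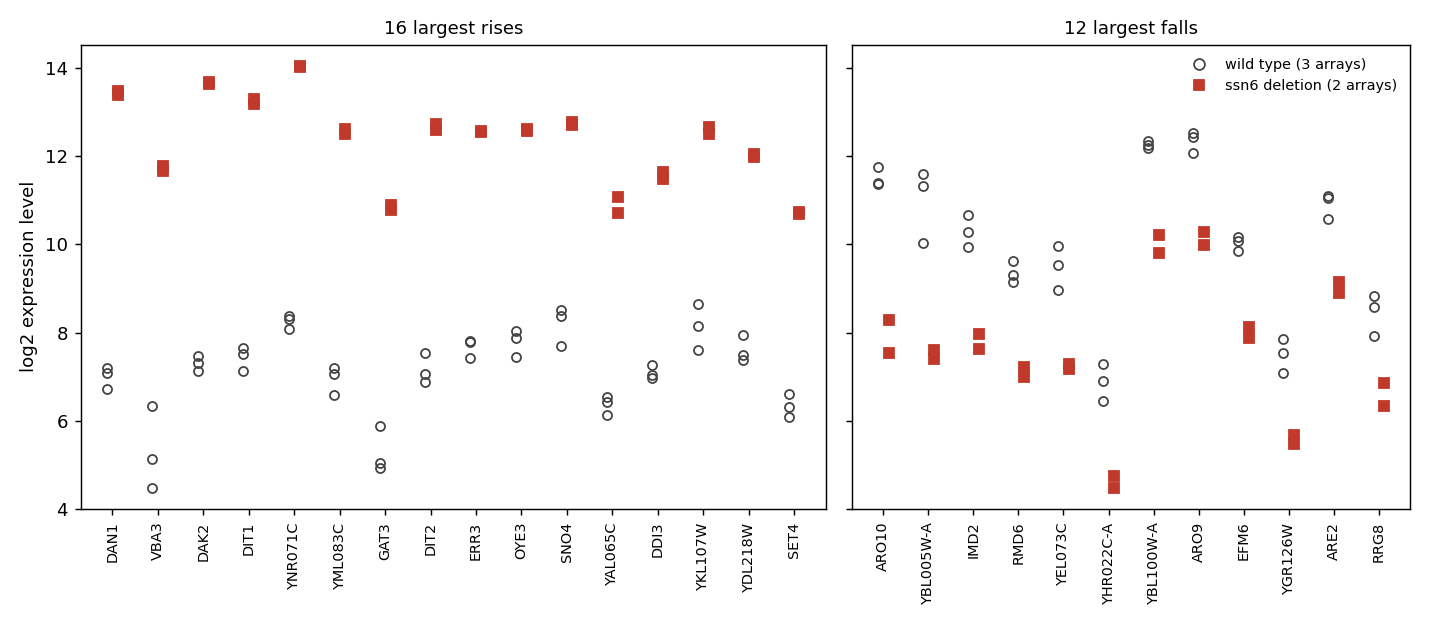
Log2 level on each array for the 16 largest rises (left) and 12 largest falls (right) outside the mating, sugar, PAU and flocculin genes; open circles are the 3 wild-type arrays and red squares the 2 ssn6 arrays. No gene shown has overlapping groups, and DAN1 spans from 6.72 to 13.48.

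Among genes that supply vitamins, 8 of 14 for thiamine, 4 of 7 for pyridoxine and 3 of 6 for biotin were higher in the deletion, and 1 biotin gene was lower. Of the 14 measured thiamine genes the median change was 1.26. THI2, an activator of thiamine genes, rose by 2.15 ± 0.17 (adjusted p = 0.000206), from 7.78, 7.86 and 7.90 to 10.01 and 9.98. THI4, which makes the thiazole part of thiamine, was at 10.18, 9.77 and 9.38 across wild type and at 11.81 and 11.63 after the deletion (1.94 ± 0.23, adjusted p = 0.00182). The groups of both genes were well apart. THI13, of the family that makes the pyrimidine portion, rose by 2.07 ± 0.20 (adjusted p = 0.000735) and PET18 by 1.97 ± 0.30 (adjusted p = 0.00497).

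Thiamine transporters moved with the synthesis genes. THI7, the main plasma membrane transporter of thiamine, rose by 1.80 ± 0.25 (adjusted p = 0.00334), and its relative THI72 by 2.30 ± 0.30 (adjusted p = 0.00254). THI22 and THI20 rose by 1.68 and 0.79. The genes that act later did not pass the test: THI80, which makes thiamine pyrophosphate, changed by -0.45 ± 0.13 (adjusted p = 0.053), and THI6 by 0.04 ± 0.15 (adjusted p = 0.868). PHO3, an acid phosphatase that frees thiamine from its phosphates, had 11.86, 11.59 and 11.98 in wild type and 12.65 and 12.66 in the deletion, which did not pass the test (0.85 ± 0.32, adjusted p = 0.101). THI3, THI21 and THI73 did not pass either. The count of higher thiamine genes was 7 without ssn6 replicate 1 and 7 without replicate 2, where 4.04% and 4.17% of all genes were called higher.

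Of 7 pyridoxine (vitamin B6) genes, 4 were higher, namely both measured SNZ and both measured SNO genes, whose products together make pyridoxal phosphate. SNZ1 lay at 10.36, 10.41 and 10.17 on the wild-type arrays and at 12.03 and 12.04 on the ssn6 arrays (1.72 ± 0.14, adjusted p = 0.000206). Its divergent neighbour SNO1 lay at 7.01, 6.34 and 6.99 and at 8.43 and 8.42 (1.65 ± 0.25, adjusted p = 0.00503). For each gene of this pair the 2 ssn6 arrays gave almost the same level, with no overlap with wild type. SNZ3 rose by 2.19 ± 0.21 (adjusted p = 0.000621) and SNO3 by 1.43 ± 0.15 (adjusted p = 0.000838). The transporter gene TPN1, the oxidase gene PDX3 and the kinase gene BUD16 had changes of 0.16, -0.05 and -0.30 with adjusted p of 0.487, 0.829 and 0.285. The count of 4 was unchanged when any 1 of the 5 arrays was left out.

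Of 6 biotin genes, the 3 that lie side by side rose. BIO5, a transporter of the biotin precursor KAPA, had 8.07, 8.16 and 7.89 in wild type and 11.15 and 11.20 in the deletion (3.14 ± 0.20, adjusted p = 7.64e-05). BIO3 and BIO4, which carry the precursor on to dethiobiotin, rose by 2.18 ± 0.32 (adjusted p = 0.00435) and 2.06 ± 0.24 (adjusted p = 0.00157). BIO2, the biotin synthase gene that lies elsewhere, had a change of 0.41 ± 0.26 (adjusted p = 0.297), and the biotin transporter gene VHT1 one of 0.60 ± 0.24 (adjusted p = 0.119). BPL1, the biotin-protein ligase, fell by 0.51 (adjusted p = 0.0377), a call that was lost without either ssn6 array, without wild-type replicate 1 or 3 and after median centring. The 3 rises held in each fit without 1 array.

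**Figure D3:**
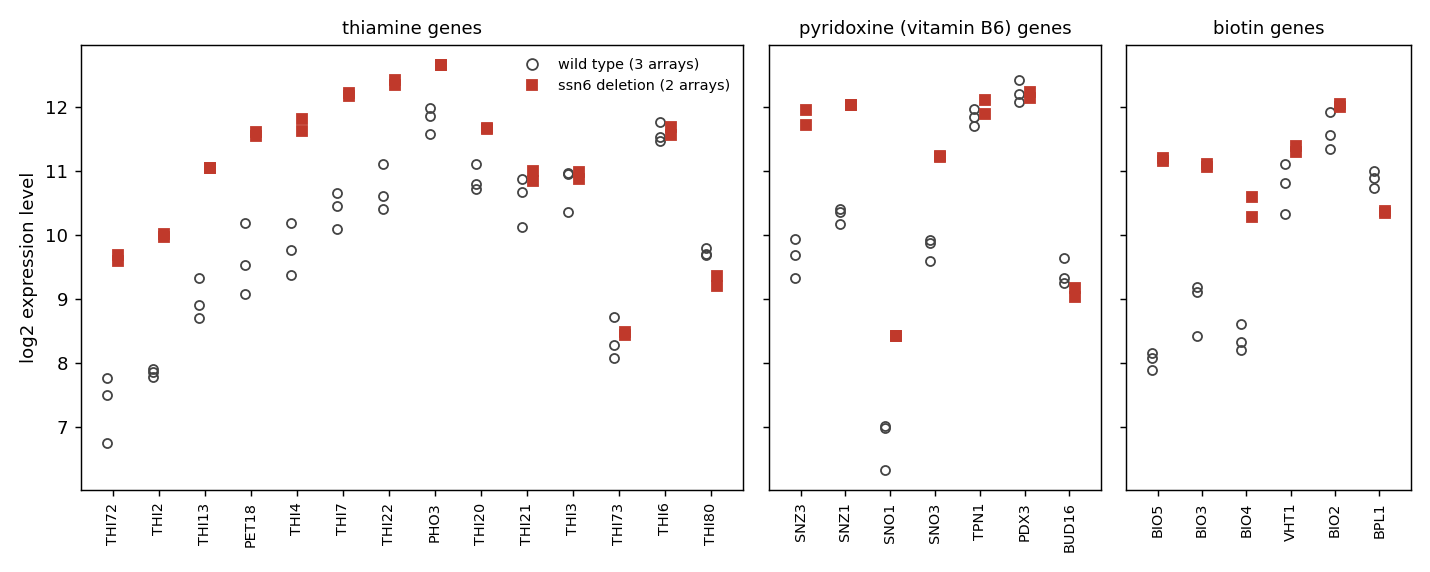
Log2 level on each array of all measured thiamine, pyridoxine and biotin genes, ordered by change within each list; open circles are the 3 wild-type arrays and red squares the 2 ssn6 arrays. Members to the left of each panel, such as THI72, SNZ3 and BIO5, have changes of 2.30, 2.19 and 3.14, while the groups of THI6, PDX3 and TPN1 overlap.

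Spore wall genes rose in part. Of 39 measured spore wall and late sporulation genes, 12 were higher, with 9 and 11 without ssn6 replicate 1 or 2, and the list's median change was 0.22. DIT1 and DIT2, whose enzymes make the dityrosine precursor of the outermost spore wall layer, were the foremost. DIT1 lay at 7.52, 7.13 and 7.65 in wild type, and the ssn6 arrays gave 13.18 and 13.31 (5.81 ± 0.18, adjusted p = 3.31e-06). DIT2 lay at 7.07, 7.54 and 6.88 and at 12.73 and 12.61 (5.51 ± 0.20, adjusted p = 6.27e-06). Both genes of this divergent pair were dim in wild type and among the brighter genes of the deletion. SPS100, which protects the maturing spore wall, reached 13.63 on both ssn6 arrays from 9.95, 10.61 and 9.98 (3.45 ± 0.22, adjusted p = 7.33e-05). SPO20, a SNARE of the prospore membrane, rose by 3.32, SPS4 by 3.28, SHC1, an activator of chitin synthase during sporulation, by 3.21, and SGA1, the sporulation glucoamylase, by 2.42.

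The other 27 members did not pass the test and ranged from SPO19 (-1.16) to LDS1 (0.48). Among markers of sporulating cells, SPS100 was the 1 of 5 that rose. NDT80, the activator of middle sporulation genes, had 8.36, 8.81 and 8.70 in wild type and 8.36 and 7.99 in the deletion (-0.45 ± 0.18, adjusted p = 0.129). SMK1, SPR3 and SSP1, which need Ndt80 in sporulating cells, had changes of -0.60, 0.03 and -0.33 with adjusted p of 0.0714, 0.933 and 0.463. Their groups lay close together or overlapped.

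Of 36 meiosis genes, 4 were higher (11.1%) and 3 lower (8.33%), with a median of 0.06. These shares are near the 9.18% and 10.3% of all genes. IME1, the master activator of meiosis, rose by 2.46 ± 0.28 (adjusted p = 0.00151), from 9.27, 10.22 and 9.60 to 11.98 and 12.34. RIM4, an RNA-binding protein gene of early meiosis, rose by 2.61 ± 0.38 (adjusted p = 0.0041), and HOP1 and REC8, parts of the meiotic chromosome axis, by 1.31 and 1.02. In the other direction ZIP1, a synaptonemal complex gene, fell by 1.13, MSH4 by 1.17 and MND1 by 1.28. MSH4 was the 1 lower meiosis gene without ssn6 replicate 1, all 3 calls were lost without replicate 2 (MSH4 had an adjusted p of 0.135), and 5 genes were lower without wild-type replicate 2.

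**Figure D4:**
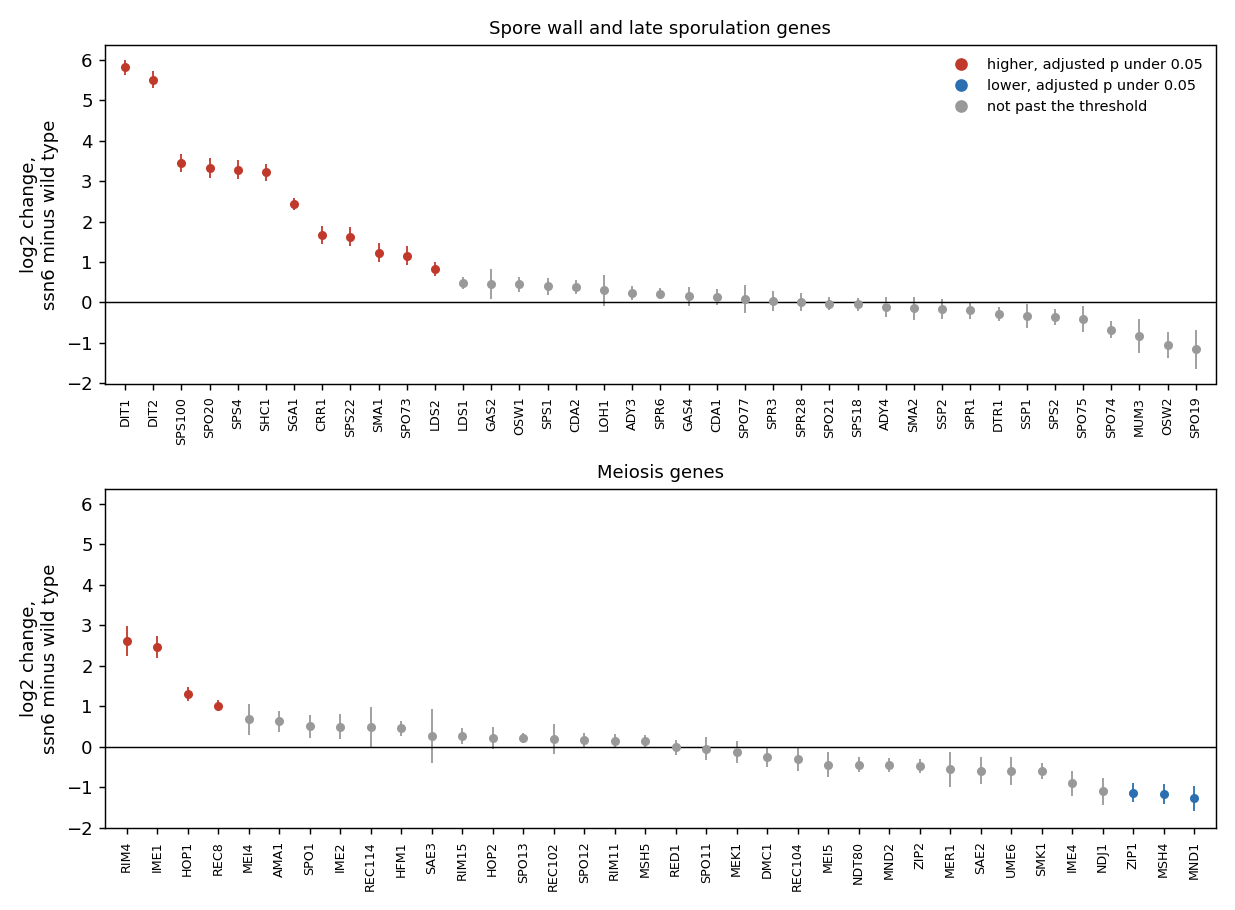
Change (ssn6 minus wild type, log2) with its moderated standard error for 39 spore wall genes (top) and 36 meiosis genes (bottom), ordered by change; red and blue points passed an adjusted p of 0.05, grey points did not. The spore wall panel falls from 5.81 for DIT1 to a long row of grey points around 0.

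The wall of the deletion strain changed at the level of its RNA in several ways. The 6 anaerobic mannoprotein genes were all higher, with a median of 3.22, also in each fit without 1 array. TIR2 was at 9.96, 9.44 and 10.32 across wild type and at 13.75 and 13.82 after the deletion (3.88 ± 0.24, adjusted p = 6.65e-05), and TIR4, TIR3 and DAN4 rose by 3.39, 3.04 and 2.55. Of 42 other wall genes, 10 were higher and 1 lower, with 5 and 5 higher without ssn6 replicate 1 or 2. YPS6, a yapsin-type surface protease gene, lay at 9.90, 10.07 and 10.63 and at 13.10 and 13.14 (2.92 ± 0.23, adjusted p = 0.000181). PIR3, a wall protein linked to beta-1,3-glucan, rose by 2.76 ± 0.27 (adjusted p = 0.000663), and NCA3, of the SUN family, by 2.28 ± 0.35 (adjusted p = 0.00526). KDX1, a kinase-like protein of the cell wall integrity pathway, rose by 1.57 and KNH1, a gene of beta-1,6-glucan synthesis, by 1.42. The structural genes GAS1, CCW12, FKS1 and ECM33 did not pass the test.

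Genes for the separation of daughter cells leaned the other way: 5 of 14 were lower and 2 higher, with a median of -0.34. DSE1, a daughter-specific gene, lay at 11.65, 11.10 and 11.04 on the wild-type arrays and at 9.59 and 9.80 on the ssn6 arrays (-1.57 ± 0.21, adjusted p = 0.00287). DSE4, an endoglucanase gene, fell by 0.97, DSE3 by 0.85 and EGT2, another daughter-specific gene, by 0.77. CTS1, the chitinase that cuts the septum, was at 13.48, 13.48 and 13.47 and at 13.17 and 13.30 and did not pass (-0.24 ± 0.12, adjusted p = 0.21). ASH1, a repressor of mating-type switching in daughter cells, rose by 0.72. DSE1 was the 1 lower member without either ssn6 array, and the count was 3 without wild-type replicate 3 and after median centring. DSE1 itself passed in each fit without 1 array, with an adjusted p of up to 0.0385.

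Among sterol genes, those for import rose and those for esterification split. AUS1 and PDR11 encode the sterol importers of anaerobic cells. AUS1 lay at 10.14, 9.71 and 10.01 in wild type, and the ssn6 arrays gave 12.38 and 12.50 (2.49 ± 0.17, adjusted p = 9.38e-05). PDR11 lay at 9.71, 9.40 and 9.65 and at 12.10 and 12.24 (2.58 ± 0.15, adjusted p = 4.43e-05). The pair of acyltransferases that esterify sterols moved in opposite directions: ARE2, the main enzyme in aerobic cells, fell by 1.88 ± 0.23 (adjusted p = 0.00218), from 10.57, 11.05 and 11.11 to 9.15 and 8.91, and ARE1 rose by 0.68 ± 0.12 (adjusted p = 0.00894). The ARE1 call was lost without an ssn6 array, with an adjusted p of up to 0.115. Of the 28 measured sterol genes, these 4 and MVD1 (-0.89), a gene of the mevalonate pathway, passed the test, and without wild-type replicate 2 the lower ones numbered 5. SUT1, which promotes sterol uptake, rose by 2.21 ± 0.19 (adjusted p = 0.000322), and the hypoxic genes ANB1 and CYC7 by 2.03 and 1.14. OLE1, the fatty acid desaturase gene, had a change of -0.18 ± 0.16 (adjusted p = 0.447) and COX5B, a hypoxic subunit of cytochrome oxidase, one of -0.08 ± 0.15 (adjusted p = 0.736). Of 16 oxygen-regulated genes 5 were higher, with 2 and 2 without ssn6 replicate 1 or 2, and ROX1, the repressor of hypoxic genes, did not pass the test (-0.08 ± 0.20, adjusted p = 0.804).

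Of 24 DNA damage genes, 9 were higher, 1 was lower and the median was 0.49. The largest rises were those of DDI3, HUG1 and RNR3. The call of the lower gene, DIF1 (-0.54), was lost without either ssn6 array, without wild-type replicate 1 or 2 and after median centring. HUG1, a small inhibitor of ribonucleotide reductase, lay at 9.29, 9.20 and 9.78 across wild type and at 13.24 and 13.15 after the deletion (3.77 ± 0.22, adjusted p = 4.57e-05). RNR3, the damage-induced large subunit of that enzyme, lay at 10.41, 10.30 and 10.30 and at 13.18 and 13.18 (2.85 ± 0.13, adjusted p = 1.67e-05). The groups of both were over 2 log2 units apart. DDI3, a damage-inducible gene for a cyanamide hydratase, rose by 4.49 ± 0.16 (adjusted p = 5.9e-06). The small subunit gene RNR4 rose by 0.57, RNR2 had a change of 0.54 that did not pass (adjusted p = 0.0567), and RNR1 rose by 0.96. RAD54, a recombination gene, rose by 1.31. The checkpoint kinase genes MEC1 and DUN1 rose by 0.60 and 0.59, and RFX1, the gene of the repressor Crt1, had a change of 0.12 ± 0.16 (adjusted p = 0.618). The count of higher genes was 4 without ssn6 replicate 1 and 4 without replicate 2.

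Genes of fatty acid oxidation and the carnitine shuttle were higher in 10 of 16 cases, with a median of 1.48. CTA1, the peroxisomal catalase, lay at 9.28, 9.25 and 8.05 on the wild-type arrays and at 12.01 and 11.98 on the ssn6 arrays (3.13 ± 0.39, adjusted p = 0.00228). SPS19, a dienoyl-CoA reductase, lay at 9.40, 9.83 and 9.47 and at 12.20 and 12.20 (2.63 ± 0.19, adjusted p = 0.000124). CTA1 was lower on wild-type replicate 3 than on the other wild-type arrays, as were POX1 (1.90), the first enzyme of the pathway, and POT1, the thiolase gene, whose change of 1.93 ± 0.65 did not pass (adjusted p = 0.0772). The wild-type spread of these genes is thus wide, and the count was 5 without ssn6 replicate 1 and 5 without replicate 2. The genes that build peroxisomes had few calls. Of 28 in the peroxin list, PEX31 (-1.14) and PEX10 (-0.66) passed, both lower (7.14%, against 10.3% of all genes). The PEX10 call was lost without either ssn6 array. At an unadjusted p under 0.05 in the limma fit 3 were higher and 6 lower, and the median was -0.14, as over all genes.

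Several dehydrogenases and carbon-side genes rose from low levels. FDH1, formate dehydrogenase, lay at 8.24, 7.85 and 7.48 in wild type, and the ssn6 arrays gave 12.05 and 12.02 (4.18 ± 0.22, adjusted p = 3.12e-05). ADH2, the glucose-repressed alcohol dehydrogenase that consumes ethanol, rose by 2.81 ± 0.19 (adjusted p = 9.15e-05) and ADH7 by 2.24 ± 0.23 (adjusted p = 0.000929), while ADH5 and ALD5 fell by 1.12 and 1.11. ADH1, the fermentative enzyme, was at 14.22, 14.25 and 14.27 and at 14.14 and 14.15, which did not pass. Of the 24 genes listed under gluconeogenesis and the glyoxylate cycle, 3 were higher (12.5%, against 9.18% of all genes), with 5 after median centring. The 3 were PCK1 (2.39), the key enzyme of gluconeogenesis, CYB2 (2.24), the lactate dehydrogenase of mitochondria, and ICL2 (1.19). FBP1, MLS1 and ICL1 of the same list did not pass (adjusted p = 0.332, 0.124 and 0.0782), and the change of ICL1 was negative. NDE2, an external NADH dehydrogenase of mitochondria, rose by 2.88 ± 0.28 (adjusted p = 0.000629), and it was 1 of 3 higher among 51 respiratory chain genes, and the 1 left without either ssn6 array. In glycogen metabolism 5 of 14 genes were higher, led by GAC1 (2.19 ± 0.17, adjusted p = 0.00021), the phosphatase subunit that targets glycogen synthase, with 1 higher without either ssn6 array and 3 without wild-type replicate 1. Of 16 glycolysis genes, 1 passed: GPM3, a minor phosphoglycerate mutase relative, fell by 1.26, with an adjusted p of 0.066 without ssn6 replicate 2.

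Membrane transport and detoxification genes were raised in places. Of 27 multidrug transport genes, 8 were higher and 1 lower, with 5 and 5 higher without ssn6 replicate 1 or 2 and 3 lower without wild-type replicate 2. RTA1, a lipid-translocating family member, lay at 8.74, 8.54 and 9.56 across wild type and at 11.95 and 12.08 after the deletion (3.07 ± 0.29, adjusted p = 0.000523). Its relative RSB1 rose by 2.08 ± 0.18 (adjusted p = 0.000337), QDR1, a multidrug exporter, by 1.58 ± 0.14 (adjusted p = 0.00045) and ATR1 by 1.27 ± 0.17 (adjusted p = 0.00289). PDR5 and SNQ2, the main drug pumps, did not pass. The general amino acid permease GAP1 went from 10.83, 10.67 and 10.69 to 13.10 and 13.00 (2.32 ± 0.13, adjusted p = 3.86e-05) and the arginine permease ALP1 rose by 2.58 ± 0.24 (adjusted p = 0.00048), while AGP1, a permease of broad range, fell by 0.84. ZPS1, a zinc-responsive surface protein gene, rose by 2.52 ± 0.15 (adjusted p = 5.67e-05). The water channel genes were named after their values were seen: AQY1 had a mean of 8.66 across the wild-type arrays, the lowest at 8.21, and lay at 12.91 and 12.81 on the ssn6 arrays (4.20 ± 0.24, adjusted p = 4.41e-05), and AQY2 rose by 2.42 ± 0.35 (adjusted p = 0.00432).

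Repressors that recruit the corepressor were themselves often higher. Of 20 such genes, 10 rose, with 7 and 6 without ssn6 replicate 1 or 2, and the median was 0.69. MIG3, a relative of the glucose repressor Mig1, lay at 9.78, 10.01 and 9.53 on the wild-type arrays and at 11.85 or more on the ssn6 arrays (2.15 ± 0.17, adjusted p = 0.000206). CIN5 and YAP6, which encode related bZIP factors, rose by 1.97 ± 0.20 (adjusted p = 0.000767) and 1.71 ± 0.22 (adjusted p = 0.00255). NRG1 and NRG2, repressors of glucose-repressed and filamentation genes, rose by 1.74 and 1.30, with adjusted p of up to 0.052 and 0.067 without an ssn6 array. MIG1 was at 11.76, 12.33 and 10.81 and at 11.75 and 11.87, with overlap (0.18 ± 0.39, adjusted p = 0.773). RFX1 and ROX1, given above, did not pass. Among other transcription factor genes, 3 of 30 were higher and 3 lower (10% each), near the 9.18% and 10.3% of all genes. HMS1 rose by 2.34 ± 0.22 (adjusted p = 0.000564) and EDS1 by 1.86, and TYE7, an activator of glycolytic genes, fell by 1.78 ± 0.19 (adjusted p = 0.00118). Without either ssn6 array 2 of that list were higher and 1 lower. In the cell cycle list 6 of 32 genes were higher and 2 lower, with 2 and 2 higher without ssn6 replicate 1 or 2. In the fit with all arrays, the shares of the cell cycle list were 18.8% higher and 6.25% lower, against 9.18% and 10.3% of all genes. PCL1, a G1 cyclin of the Pho85 kinase, rose by 1.74 ± 0.24 (adjusted p = 0.00372), CLN1, a G1 cyclin, by 1.12 and CLB1, a mitotic cyclin, by 1.08.

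The largest fall was that of ARO10, and ARO9 of the same pathway was among the 12 largest. ARO10, the decarboxylase that turns phenylpyruvate toward fusel alcohols, lay at 11.38, 11.39 and 11.76 in wild type, and the ssn6 arrays gave 8.29 and 7.53 (-3.60 ± 0.25, adjusted p = 0.000107). ARO9, the aminotransferase of the step before, lay at 12.45, 12.54 and 12.08 and at 10.28 and 9.99 (-2.22 ± 0.19, adjusted p = 0.000337). Both were lower by more than the whole spread of either group, while their activator gene ARO80 had a change of 0.04 ± 0.14 (adjusted p = 0.872) and the other aminotransferase gene ARO8 one of -0.41 ± 0.15 (adjusted p = 0.0988). The minor pyruvate decarboxylase genes PDC5 and PDC6 rose by 1.65 ± 0.20 (adjusted p = 0.00215) and 1.47 ± 0.16 (adjusted p = 0.0013). These 4 calls of 6 measured genes held in each fit without 1 array.

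IMD2, an IMP dehydrogenase of guanine nucleotide synthesis, fell by 2.50 ± 0.29 (adjusted p = 0.00157), from 9.94, 10.28 and 10.67 to 7.97 and 7.63, and was the 1 of 23 purine genes that passed. The retrotransposon Gag open reading frames YBL005W-A and YBL100W-A fell by 3.47 ± 0.43 and 2.26 ± 0.17 (adjusted p = 0.00217 and 0.000169). These elements have many near-identical copies, so the values cannot be given to single ones. YHR022C-A was under the floor on both ssn6 arrays and was at least 2.44-fold lower (adjusted p = 0.00107). RMD6, a gene needed for meiotic division, fell by 2.26, YEL073C by 2.26 and YGR126W by 1.91. EFM6, a methyltransferase acting on an elongation factor, and RRG8 fell by 2.03 and 1.85, with adjusted p of up to 0.081 and 0.094 without 1 array.

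Amino acid synthesis lists differed in their share of lower genes. Of 12 branched-chain genes 5 were lower (median -0.31), and of 18 genes of serine, threonine and aspartate metabolism 6 were lower and 2 higher (median -0.40). The other lists were near the 10.3% of all genes, with 1 of 14 arginine and lysine genes, 2 of 17 histidine and aromatic genes (5 without wild-type replicate 2) and 3 of 30 sulfur and methionine genes lower. ASN1, an asparagine synthetase, lay at 13.24, 13.30 and 13.16 across wild type and at 12.02 and 11.85 after the deletion (-1.30 ± 0.14, adjusted p = 0.00117). SER2, phosphoserine phosphatase, fell by 1.19 ± 0.15 (adjusted p = 0.00198), HOM3, aspartate kinase, by 1.02 and LEU9, an isopropylmalate synthase, by 1.60 ± 0.36 (adjusted p = 0.0242). SER3, a phosphoglycerate dehydrogenase, rose by 1.08. The 5 branched-chain calls were lost without either ssn6 array, and 2 genes were lower without wild-type replicate 1. Of the serine, threonine and aspartate genes, 2 were lower without ssn6 replicate 1, 2 without replicate 2, 3 without wild-type replicate 1 and 4 after median centring.

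Chaperone genes split. Of 31 genes, 7 were lower and 2 higher, with a median of -0.27. FES1, a nucleotide exchange factor of Hsp70, lay at 13.67, 13.57 and 13.49 on the wild-type arrays and at 12.32 and 12.41 on the ssn6 arrays (-1.21 ± 0.14, adjusted p = 0.00164). SSA4, a stress-induced Hsp70, fell by 1.04 ± 0.13 (adjusted p = 0.00235), and HSP82, STI1 and SSA2 by 0.63, 0.61 and 0.60. HSP31 rose by 1.37 ± 0.17 (adjusted p = 0.00228) beside SNO4. HSP104, HSC82 and SSA1 did not pass. Without ssn6 replicate 1 or 2, 2 and 2 members were lower, and after median centring 5 were.

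In phosphate metabolism 7 of 21 genes were lower and PHO89, a sodium-phosphate cotransporter, was higher, with a median of -0.45. PHM6 fell by 1.62 ± 0.27 (adjusted p = 0.00759), PHO8, the vacuolar alkaline phosphatase, by 0.91 and VTC3 and VTC4, subunits of the polyphosphate polymerase, by 0.89 and 0.63. The high-affinity transporter gene PHO84 and the acid phosphatase gene PHO5 had changes of -0.22 and -0.91 that did not pass (adjusted p = 0.552 and 0.0649). The PHO89 call was lost without either ssn6 array and without wild-type replicate 2. With a single ssn6 array in the fit 1 member was lower, and without wild-type replicate 3 there were 4. Iron genes were mixed: 5 of 32 were higher (15.6%) and 6 lower (18.8%), against 9.18% and 10.3% of all genes. The reductase gene FRE4 (2.14) led the rises. TIS11 (-1.47) and CTH1 (-1.13), which encode proteins that destabilise mRNAs in low iron, led the falls. The iron calls were lost without ssn6 replicate 1, 2 genes were higher and 1 lower without replicate 2, and 3 were lower without wild-type replicate 1.

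Histone deacetylase and silencing genes were lower in 6 of 19 cases (median -0.25), among them HOS2 (-1.20), HOS1 (-0.95) and HDA3 (-0.74), catalytic or structural subunits of deacetylases. These changes were near the threshold: their adjusted p lay between 0.0266 and 0.0475, 1 member was lower without ssn6 replicate 1 and 3 without wild-type replicate 3, and the 6 calls were lost without ssn6 replicate 2 or wild-type replicate 1. The deacetylase subunit SIN3 and the repressors SUM1 and HST1 did not pass.

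Genes of protein synthesis and breakdown had few calls, while the medians of some lists lay well below that of all genes. Of 127 ribosomal protein genes 2 were higher (RPS28B by 1.32 and RPS9A by 1.03), with a median of -0.05, and 1 was higher without wild-type replicate 2. Of 86 ribosome biogenesis genes 5 were lower (5.81%, against 10.3% of all genes), while 29 were lower at an unadjusted p under 0.05 and the median of -0.54 was the lowest of the 60 lists. The largest called fall was that of UTP6 (-1.50 ± 0.32, adjusted p = 0.02). Of 67 mitochondrial ribosome genes 10 were lower (14.9%, against 10.3% of all genes) and 1 higher (median -0.27). Of 18 tRNA synthetase genes 3 were lower (16.7%), and 10 at an unadjusted p under 0.05 (median -0.45). Without either ssn6 array the calls of these 4 lists were lost. After median centring 3 ribosome biogenesis and 5 mitochondrial ribosome genes were lower, and the tRNA synthetase calls were lost. Without wild-type replicate 1, 5 mitochondrial ribosome genes were lower and the calls of the other 3 lists were lost, and without wild-type replicate 3 6 mitochondrial ribosome genes were lower and the tRNA synthetase calls were lost. None of 34 proteasome genes passed in the limma fit, where 7 had an unadjusted p under 0.05, all lower, and the median was -0.20.

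Risen genes lay next to each other more often than their overall share. Among 5017 pairs of adjacent measured genes, both rose at least 2-fold in 68. Of the neighbours of a risen gene 23.5% had risen, against 5.77% of all genes in such pairs. The share was highest for divergent pairs, which share an upstream region, with 34.7% (25 pairs of 1287), and was 22.4% for convergent and 18.6% for tandem pairs. Without any mating, sugar, PAU or flocculin gene, 48 pairs remained and the share was 19.6%, against 5.05%. Adjacent frames of a retrotransposon, such as YGR109W-B and YGR109W-A, were kept among these pairs. Unnamed loci were kept too, whether or not they resemble a flocculin. Shared transcripts and similar sequences of neighbours were not checked, so the pairs are not all independent rises. Among falls, 7 pairs fell together, and 5.79% of the neighbours of a fallen gene had fallen, against 2.41%. Without either ssn6 array 41 pairs rose together, with fewer genes called.

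Many of the pairs join genes of 1 function or cross between functions described above. DIT1 and DIT2, SNZ1 and SNO1, and SNZ3 and SNO3 are divergent pairs, and DDI3 lies beside SNO3. BIO5, BIO4 and BIO3 form a run of 3, as do TIR4, TIR2 and AUS1, in which mannoprotein genes adjoin a sterol importer. RAD54 and SUT1 share a divergent upstream region, with rises of 1.31 and 2.21. XBP1 (1.34), a repressor gene, lies divergent from SGA1 (2.42), SNO4 (4.55) from ERR3 (4.89), GEX1 (1.47) from VBA3 (6.42), and the locus YLR012C (4.10) from GAT3 (5.57). FDH1 lies between YOR387C (2.79) and YOR389W (2.28), which rose as well.

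**Figure D5:**
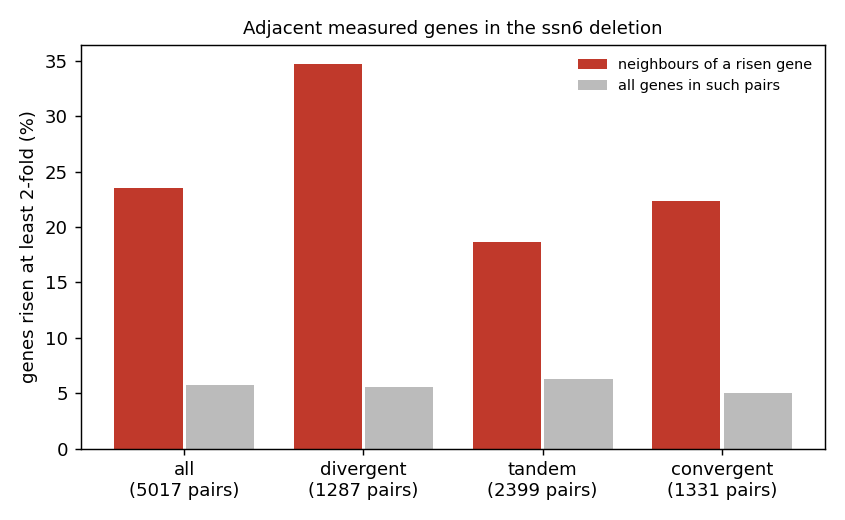
Percent of genes that rose at least 2-fold in the ssn6 deletion, among the neighbours of a risen gene (red) and among all genes in the pairs (grey), for 5017 adjacent measured pairs and by orientation. The red bar is highest for divergent pairs, at 34.7%.

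Further lists held single large rises among members that mostly did not pass. GIT1, a permease for glycerophosphoinositol, lay at 8.08, 6.99 and 8.71 in wild type. The ssn6 arrays gave 10.31 and 10.57, a rise of 2.51. Of 24 phospholipid genes 4 were lower (16.7%, against 10.3% of all genes). EPT1 (-0.99) and CHO2 (-0.71), enzymes of phospholipid synthesis, were among these. COS111 rose by 2.28, the 1 of 9 genes listed by a COS symbol that passed. Its symbol alone does not make it a member of the subtelomeric COS family. SUL1, a sulfate permease, rose by 1.79, 1 of 4 higher among 30 sulfur and methionine genes (13.3%, against 9.18% of all genes), of which 3 were lower. DAL4, the allantoin permease, rose by 1.62, and 4 of 11 allantoin and urea genes were higher. FUR4 and FUI1, permeases for uracil and uridine, rose by 1.21 and 1.01. BNA2, the first enzyme of NAD synthesis from tryptophan, rose by 1.25 as the 1 higher of 14 NAD genes. ATG41, a gene of autophagy, fell by 1.56, and of 34 autophagy genes 3 were higher and 3 lower (8.82% each, near the 9.18% and 10.3% of all genes). Without either ssn6 array the calls of the phospholipid and NAD lists and those of FUR4 and FUI1 were lost, as were the 3 higher autophagy calls, and 1 allantoin gene and 1 sulfur gene were higher.

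A direct contrast of the deletions tested which of these genes differed between the loss of SSN6 and the loss of TUP1. It called 131 of 5449 genes (2.4%), 104 of them higher and 27 lower in the ssn6 deletion. The count was 13 without ssn6 replicate 1, 5 without ssn6 replicate 2, 62 without wild-type replicate 1 and 257 without wild-type replicate 2, so single genes should be read with care. Vitamin genes were among them. SNZ1 lay at 12.03 and 12.04 in the ssn6 deletion and at 10.63 and 10.46 in the tup1 deletion, against 10.36, 10.41 and 10.17 in wild type (ssn6 minus tup1, 1.49 ± 0.15, adjusted p = 0.00632). SNO1 differed by 1.57 ± 0.27 (adjusted p = 0.0376). Both genes were thus near the wild-type level without TUP1.

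THI22 lay on opposite sides of wild type in the deletions: at 12.35 and 12.42 without SSN6, at 6.95 and 6.51 without TUP1, and between them at 10.61, 11.10 and 10.40 in wild type (ssn6 minus tup1, 5.66 ± 0.26, adjusted p = 0.000101). UTR2, a chitin transglycosylase gene of the wall, lay at 12.62 and 12.74 without SSN6 and at 9.95 and 9.85 without TUP1, with wild type between them at 12.13, 12.03 and 11.89 (2.78 ± 0.15, adjusted p = 0.000255). DSE1 was lower without SSN6 than without TUP1 by 1.62 ± 0.23 (adjusted p = 0.0187), and its level without TUP1, 11.35 and 11.28, lay within the wild-type range. PDC5 was higher by 1.29 (adjusted p = 0.0376), DDI3 by 1.62 (adjusted p = 0.0067) and PCL1 by 1.51 (adjusted p = 0.0388) without SSN6, and ARO9 was lower by 1.11 (adjusted p = 0.0466). DAN1 and SET4, which were high in both deletions, were higher without SSN6 by 1.16 and 1.16 (adjusted p = 0.029 and 0.03).

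Retrotransposon Ty3 reading frames, named after their values were seen, were also higher without SSN6. YGR109W-B lay at 11.53 and 11.53, against 9.99, 10.41 and 9.94 in wild type and 9.25 and 9.39 without TUP1, with a change from wild type of 1.42 ± 0.17 (adjusted p = 0.00207) and from the tup1 deletion of 2.21 ± 0.19 (adjusted p = 0.00339). YIL082W-A rose by 2.13 ± 0.34 over wild type (adjusted p = 0.0059) and was 2.72 ± 0.37 above the tup1 deletion (adjusted p = 0.0169). The Ty3 frames therefore moved opposite to the Gag frames YBL005W-A and YBL100W-A described above.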

How the data were processed

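RNA of 7 samples was hybridised to 7 one-colour Affymetrix arrays. The files hold deposited log2 levels per probe set, already normalized by the authors. The tools listed per the submitters' processing notes are RMA and limma, with no version or role. RMA in its usual form forces the arrays to a common distribution, gives no detection call and compresses the changes of dim genes.

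Of 10928 probe sets, 5498 have 1 budding yeast gene, which gave 5449 genes, each represented by its probe set of highest mean. All 7 arrays entered 1 limma fit with genotype as the factor (limma 3.58.1, lmFit and eBayes, R 4.3.3, two-sided, 4 residual and 3.19 prior degrees of freedom). P-values were Benjamini-Hochberg adjusted across the 5449 genes, and calls were made under 0.05. The standard error of a change was 0.18 at the median. Background on each array was taken as percentile 95 of 1746 fission yeast probe sets. Gene order came from a table of assembly R64. The procedure was tested on simulated data. Python 3.11.15 with matplotlib 3.10.9 made the plots.

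The members and gene lists were chosen with earlier results of these data known. Named genes were, by rule, the deleted genes, the 16 greatest rises and 12 greatest falls (called, without overlap of arrays, outside the families set aside), up to 5 called members per list, up to 3 bright uncalled members of lists of at most 20, and cell type markers. Other list members and the genes of the direct contrast were named after their values were seen. The alternatives were quantile normalization, median centring, dropping genes under the floor, trended robust eBayes, a fit restricted to wild-type and ssn6 arrays, array weights, a replicate block, averaging probe sets, a threshold of 0.01, and omission of single arrays. Promoter sequences were not used here.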

Additional observations from a re-analysis of the deposited data

Results flagged for a closer look

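Of 3470 probe sets without a gene in the annotation used, 13 were at least 2-fold higher in the ssn6 deletion at an adjusted p under 0.05 and 1 was lower. They lie outside the genes compared above. The largest rise among them was 4.57, while none of 1746 fission yeast probe sets passed the same limits in the limma fit, where the largest rise was 0.73.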

How the results depend on the processing

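No called change of a named gene turned its direction under any alternative. With array weights 2139 genes were called (786 higher, 1353 lower), and 412 between the deletions (263 higher, 149 lower). At an adjusted p of 0.01 there were 397 (281 higher, 116 lower), 76 falls of at least 2-fold, and 25 between the deletions (20 and 5). Leaving out 1 array gave 279 to 1196 calls against wild type (220 to 551 higher, 52 to 645 lower), 274 to 469 of at least 2-fold (217 to 322 higher, 48 to 152 lower), 5 to 257 between the deletions (4 to 166 higher, 1 to 91 lower) and 41 to 66 pairs of risen neighbours. The cause was not tested, except that a fit with 1 ssn6 array has fewer samples. The titles number the replicates of each group. Deviations of same-numbered wild-type and ssn6 samples correlated at -0.36 and -0.27, and those of the crossed pairs at 0.36 and 0.27. With 2 ssn6 arrays the crossed values must mirror the others. These values therefore cannot show whether samples share more than a number. The replicate block gave 708 calls (414 higher, 294 lower) and 58 between the deletions (48 and 10). Quantile normalization, median centring, the floor filter, trend and robust settings, the mean of probe sets and the fit on wild-type and ssn6 arrays alone kept every total within 1.5 times. Median centring moved the calls from 500 higher and 559 lower to 536 and 439. The medians of the sterol, trehalose, ER folding and ribosomal protein lists, all within 0.05 of 0, changed sign with it. Leaving out 1 array turned the sign of the medians of the spore wall list (0.22, lowest -0.0076) and of the meiosis, glycerol, iron, other transcription factor, ammonium, trehalose and ER folding lists, all within 0.09 of 0. The contrast between the deletions could not be computed without the tup1 arrays, and promoter motifs were not analysed here. Arrays in small number, 2 and 3 per group, limit the precision, and 36 to 70 genes per array lay under the floor.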
